A study of Mus musculus with 4 samples.

Results

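The homeobox and T-box patterning factors form a set of 60 genes out of the 12393 genes named on the arrays. They were chosen by symbol alone: the Hox genes of clusters A to D, Msx1 and Msx2, the Dlx, Meis, Pbx, Prrx and Pitx families, and the numbered Tbx genes. Where a gene had several probe sets, the one with the highest mean signal over the 4 arrays stood for it. The cells were C2C12, an established mouse myoblast line, held for 48 hours in methyl cellulose suspension, where they stop dividing and enter the resting state G0. In 2 samples the cells were given Wnt3A, the secreted signal of the β-catenin pathway, at 50 ng/ml, and the 2 control samples are the ones whose titles name no Wnt3A. The labels call the arrays biological replicates without saying whether cultures were started apart, so p-values measure the spread between these arrays.

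Homeobox proteins bind short AT-rich DNA motifs through the homeodomain, and T-box proteins bind through a domain of their own. Hox genes lie in clusters, and the order along a cluster follows the order of expression along the body axis, from the anterior low-numbered genes to the posterior high-numbered ones. Meis and Pbx proteins are partners that bind DNA together with Hox proteins, while Msx, Dlx, Prrx, Pitx and Tbx proteins pattern limbs, jaws, muscle and organs. In the limb, Wnt signals act on several of these genes, and many adult muscle and connective tissue cells keep the Hox pattern of the region they came from.

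None of the 35 tested members passed an adjusted p of 0.05 in limma, and neither did any of the 9295 tested genes (0%). At an unadjusted p under 0.05 there were 2 members, Hoxa11 and Dlx1, where 5.68% of all tested genes lay under that value (2.46% higher and 3.22% lower with Wnt3A). With the replicate number as a block 0 members passed the adjusted p, where 0.893% of all tested genes did. The widest difference was that of Hoxa11, a posterior Hox gene, at 0.90 on the log2 scale in favour of Wnt3A. No member was 2-fold apart, where 4.43% of all tested genes were at least 2-fold apart and 3.63% were so without overlap of the arrays. The 95% confidence interval of the difference lay inside 2-fold in both directions for 21 of the 35 tested members (60%), against 65.1% of all tested genes.

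The sequence upstream of Hoxa11 is shown because this gene had the widest difference. That of Hoxa9 is shown because it is a HoxA gene whose Wnt3A arrays also lay above both controls, on the brighter probe set. That of Meis3 is shown because it holds the same motif as Hoxa11 while the gene differed by 0.04. Each is the 250 bases before the gene's start in RefSeq, build GRCm38.p6, read 5′ to 3′ on the strand of the gene. Capitals mark a match to the core that TCF and LEF proteins, the DNA-binding partners of β-catenin, are known to bind. The letters searched, on both strands, were CTTTG followed by a pair of bases that are each A or T. The stretch of Hoxa11 is chr6:52245811-52246060 on the minus strand, that of Hoxa9 is chr6:52227371-52227620 on the minus strand, and that of Meis3 is chr7:16175145-16175394 on the plus strand.
Hoxa11: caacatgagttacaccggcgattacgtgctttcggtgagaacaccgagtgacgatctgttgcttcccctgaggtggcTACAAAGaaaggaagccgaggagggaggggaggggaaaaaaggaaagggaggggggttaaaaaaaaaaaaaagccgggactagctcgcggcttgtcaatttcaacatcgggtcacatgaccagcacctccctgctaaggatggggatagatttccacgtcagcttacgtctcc
Hoxa9: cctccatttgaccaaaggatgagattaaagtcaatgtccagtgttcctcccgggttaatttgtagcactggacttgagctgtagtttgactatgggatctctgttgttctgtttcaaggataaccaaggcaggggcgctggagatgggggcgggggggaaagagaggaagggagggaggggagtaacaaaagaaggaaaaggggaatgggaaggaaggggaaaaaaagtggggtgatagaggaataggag
Meis3: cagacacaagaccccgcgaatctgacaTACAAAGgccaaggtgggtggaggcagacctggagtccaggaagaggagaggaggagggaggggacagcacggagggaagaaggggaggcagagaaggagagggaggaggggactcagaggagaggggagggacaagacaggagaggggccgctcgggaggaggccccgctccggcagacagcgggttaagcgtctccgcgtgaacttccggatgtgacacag

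The promoter table held 37 of the 60 members, with 40 starts, and 22 of the 35 tested members, with 24 starts. The TCF/LEF letters occurred upstream of 4 of the 40 member starts (10%) and of 14.8% of all 32851 starts. Among tested members they occurred only upstream of Hoxa11, 173 bases before the start, and Meis3, 223 bases before it. The composite letters of Hox with Pbx, TGATNNAT, occurred upstream of 4 of the 40 starts (10%), against 7.68% of all starts, and upstream of none of the 24 starts of tested members. Those of Meis, TGACAG, occurred at 2 of the 40 (5%), against 15.9% of all, and those of T-box proteins, TCACACC, at 1 of the 40 (2.5%), against 3.33% of all. These matches describe the letters and name no site of binding; the heptamer stood before a gene that differed by 0.90 and before one that differed by 0.04.

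The median signals of the 4 arrays lay between 4.15 and 4.22 on the log2 scale, and array pairs correlated between 0.936 and 0.978 over the tested genes. Of 6 tested feedback and target genes of the Wnt pathway, all 6 read higher with Wnt3A, and for 5 the arrays did not overlap, as was so for 34.4% of all tested genes. Axin2, a feedback inhibitor in that pathway, read 5.13 and 6.14 with Wnt3A, against 3.25 and 3.21 in control (adjusted p = 0.409 in limma). Of 10 myoblast markers 8 were above the limit for dim genes, and Pax7 and Msc were under it. All 10 together had summed signals of 61.0 and 54.6 with Wnt3A and 58.1 and 61.3 in control. Within that list Myf5 differed by 1.43 and Ncam1 by 0.56, while Myog differed by -1.59 and Myod1 by more in the same direction. Chrna1 differed by 0.44, Des by -0.24, Pax3 by -0.03 and Cdh15 by -0.61, all with overlapping groups. Myod1, a master regulator of the muscle lineage, read 6.32 and 3.62 with Wnt3A, against 6.84 and 7.11 in control. Of 9 macrophage and leukocyte markers 5 were under the limit, Ptprc and Adgre1 among them, and 4 were above it: Cd14 differed by -1.16, Fcgr3 by -0.45, Csf1r by 1.03 and Cd68 by 0.28, with summed signals of the list of 22.7 and 24.5 with Wnt3A and 24.9 and 24.1 in control. Csf1r read 3.53 and 5.19 with Wnt3A, against 3.26 and 3.39 in control. Of 10 endothelial and epithelial markers 6 were under the limit, Pecam1, Cdh5, Epcam and Cdh1 among them, and 4 were above it. Krt8 differed by -0.41, Kdr by -0.26, Cldn5 by 0.20 and Krt19 by 0.96. Krt19 read 3.27 and 5.61 with Wnt3A, against 2.57 and 4.39 in control, with overlapping groups. The whole list summed to 19.1 and 21.4 with Wnt3A and to 19.3 and 20.2 in control. All 9 fibroblast markers together had a summed signal of 40.6 and 41.3 on the Wnt3A arrays, against 44.3 and 47.2 in control. Of the 9, 6 were above the limit. Fap differed by -1.65, Dcn by -1.18, Pi16 by -0.78 and Pdgfra by -1.22. The other tested ones, Col1a1 and S100a4, differed by 0.54 and 0.005, with overlapping groups. The Wnt3A means of Fcgr3 (2.17), Kdr (2.17) and Fap (1.58) and the control mean of Cldn5 (2.15) were under the limit. The part of these marker lists in the results below was not tested. Probe sets for 18S ribosomal RNA read between 6.82 and 7.57 on control replicate 2 and between 9.04 and 11.0 on the other arrays, and hybridization controls averaged 7.0 on Wnt3A replicate 2 and between 7.35 and 7.57 on the others. The part of either in the results was not tested. Scaling the arrays to the hybridization controls put the median difference of all tested genes at 0.30, beside -0.02 as deposited, so every difference reads higher on that scale. Under it 28 of the 35 tested members read higher with Wnt3A, beside 22 as deposited.

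The limit for dim genes was a mean signal of 2.18 over the 4 arrays, under which the lowest 25% of all genes fell. Of the 60 members, 35 lay above it (58.3%), and 33 of these lay above it on every array. Just inside stood Tbx19, with a mean of 2.25, and Pitx1, with 2.26; just outside stood Hoxb2, with 2.14, and Hoxa2, with 2.05. Above the limit were Hoxa3, Hoxa5, Hoxa7, Hoxa9, Hoxa10, Hoxa11, Hoxb3, Hoxb4, Hoxc4, Hoxc6, Hoxc8, Hoxc9, Hoxc13, Msx1, Dlx1 to Dlx4, Meis1 to Meis3, Pbx2, Pbx3, Prrx1, Prrx2, Pitx1, Pitx3, Tbx1, Tbx2, Tbx3, Tbx5, Tbx15, Tbx18, Tbx19 and Tbx20. The 25 others read between 0.91 and 2.51 on single arrays, and 21 of them were under the limit on every array. Signals of different probe sets are not set against each other, since probes differ in how strongly they bind.

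**Figure D1:**
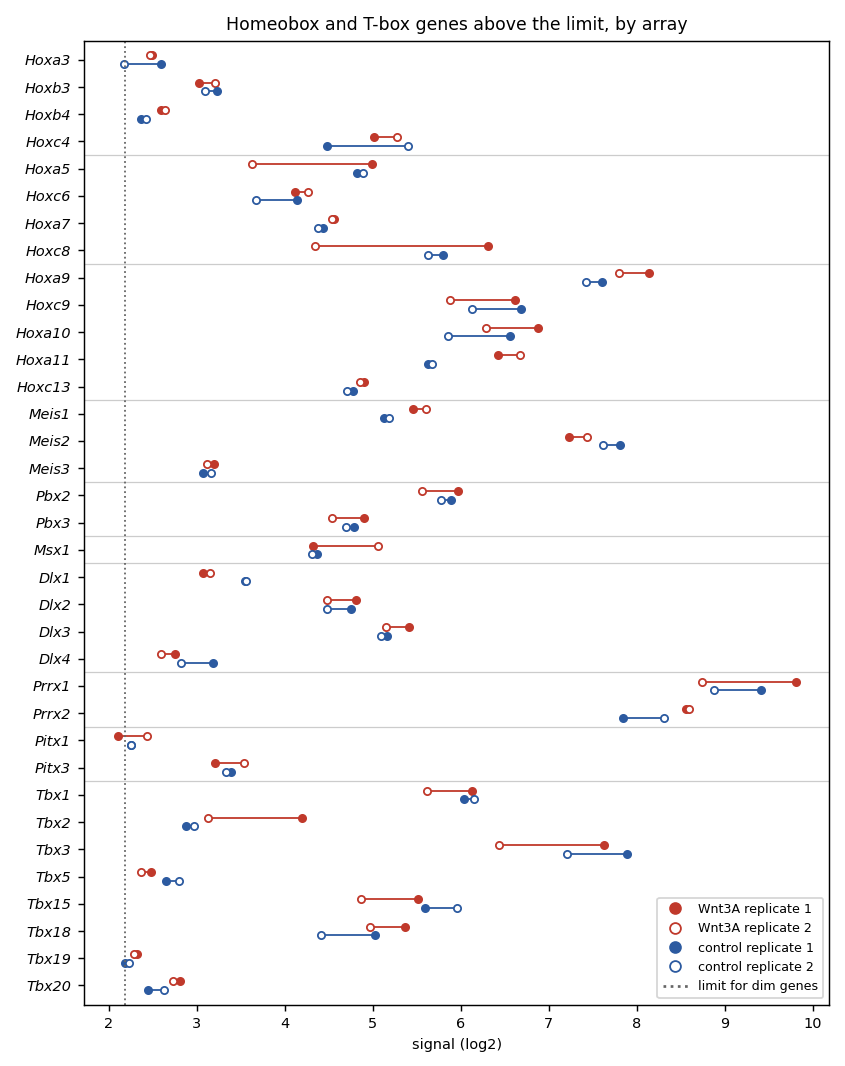
Signal on a log2 scale (horizontal) of the 35 members above the limit, 1 row per gene, with Wnt3A arrays in red above the control arrays in blue. Filled points are replicate 1, open points replicate 2, and a line joins the arrays of a group; the dotted line is the limit of 2.18. The groups of 15 genes do not overlap, Hoxa11 and Dlx1 among them, and the Wnt3A arrays of Hoxc8 and Hoxa5 lie over 1 log2 unit apart.

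The Hox clusters differed in how many of their members passed the limit. In HoxA 6 of 9 members did, in HoxC 5 of 6, in HoxB 2 of 9 and in HoxD 0 of 7. The 7 members of HoxD, whose posterior genes pattern the digits, read 0.91 to 2.47 across arrays, and only Hoxd13 on Wnt3A replicate 2 was above the limit. Hoxd3 and Hoxd4 are not among them, since their probe sets carry both symbols. One of these sets read between 2.98 and 3.35, above the limit on all 4 arrays. By position, 5 of 13 posterior members passed, against 4 of 9 central and 4 of 9 anterior ones. The posterior members include Hoxd9 to Hoxd13, all under the limit, while from HoxD the central ones include only Hoxd8 and the anterior ones only Hoxd1. The shares by position are therefore not apart from those by cluster. A gene under the limit may still be expressed at a level that its probe set did not register, and in bulk RNA fewer expressing cells and less RNA per cell cannot be told apart.

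Hoxa11, which in mice shapes the forearm and the kidney, read 6.43 and 6.67 with Wnt3A, against 5.63 and 5.67 in control. Both Wnt3A arrays lay above both controls, and the gap between groups was wider than the gap within either group. The difference was 0.90 (SE 0.22, 95% confidence interval 0.33 to 1.46), a 1.86-fold ratio, with an adjusted p of 0.648 in limma. It ran from 0.78 to 1.02 when single arrays were left out.

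Hoxa9, a posterior gene also known from blood progenitors and leukaemia, read 8.14 and 7.80 with Wnt3A, against 7.60 and 7.42 in control. No control array reached the lower Wnt3A array. The difference was 0.46 (SE 0.22, 95% confidence interval -0.12 to 1.04; limma adjusted p = 0.917). Another probe set of Hoxa9 above the limit differed by 0.07, with 5.49 and 5.12 with Wnt3A and 5.46 and 4.99 in control. There the groups overlapped, so both the size and the lack of overlap rest on the probe set. With single arrays left out the difference of the brighter probe set ran from 0.29 to 0.63. Hoxa10, which acts in the uterus and the limb, read 6.88 and 6.28 with Wnt3A, against 6.56 and 5.85 in control. Its groups overlapped, and its difference of 0.38 (SE 0.36) was smaller than the gap within either group. Leaving out control replicate 2 gave 0.02, and leaving out control replicate 1 gave 0.73.

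The tested posterior Hox genes had a median difference of 0.38, beside -0.02 over all tested genes. That median was the value of Hoxa10, and leaving out control replicate 2 gave 0.10, Wnt3A replicate 1 0.11, control replicate 1 0.55 and Wnt3A replicate 2 0.63. Of the 5, 4 read higher with Wnt3A (5 after scaling to hybridization controls). For 3 the arrays did not overlap, where 34.4% of all tested genes had no overlap. These were Hoxa9, by its brighter probe set alone, Hoxa11 and Hoxc13. Hoxc13, known for hair and nail formation, differed by 0.14 (SE 0.20). Hoxc9, a gene of the trunk, read 6.61 and 5.88 with Wnt3A, against 6.68 and 6.13 in control, and the order of its groups was mixed. Its difference of -0.16 (SE 0.36) became 0.21 when Wnt3A replicate 2 was left out and 0.12 when control replicate 1 was, and it was 0.16 after the arrays were scaled to their hybridization controls.

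Of the 4 tested central Hox genes, Hoxc8 and Hoxa5 had Wnt3A arrays far apart from each other, and Hoxa7 and Hoxc6 did not. Hoxc8, which patterns the lower neck and thorax, read 6.31 and 4.34 with Wnt3A, against 5.80 and 5.63 in control. One Wnt3A array lay above both controls and the other below both. The difference of -0.39 (SE 0.68, 95% confidence interval -2.17 to 1.39) was 0.60 without Wnt3A replicate 2. Hoxa5, which in mice is needed for the airways and the neck skeleton, read 4.99 and 3.62 with Wnt3A, against 4.82 and 4.88 in control. Here too the Wnt3A arrays lay on either side of both controls, and the difference of -0.55 (SE 0.49) was 0.13 without Wnt3A replicate 2. Hoxa7 differed by 0.14, with no overlap of its groups, and Hoxc6 by 0.29, which was 0.054 without control replicate 2.

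Of the tested anterior Hox genes 3 read higher with Wnt3A and 1 lower (4 and 0 after scaling to hybridization controls), within a range of -0.04 to 0.22. Hoxc4, a gene of the neck region, read 5.01 and 5.28 with Wnt3A, against 4.48 and 5.40 in control. The control arrays enclosed both Wnt3A arrays. Its difference of 0.20 (SE 0.37) was -0.26 without control replicate 1. Hoxb3 read 3.03 and 3.21 with Wnt3A, against 3.23 and 3.09 in control, with overlapping groups. Its difference was -0.04 (SE 0.18) and 0.28 after scaling to hybridization controls. Hoxb4, known from blood stem cells, differed by 0.22 without overlap, and Hoxa3, which is needed for the thymus, by 0.10, which was -0.12 without control replicate 2.

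**Figure D2:**
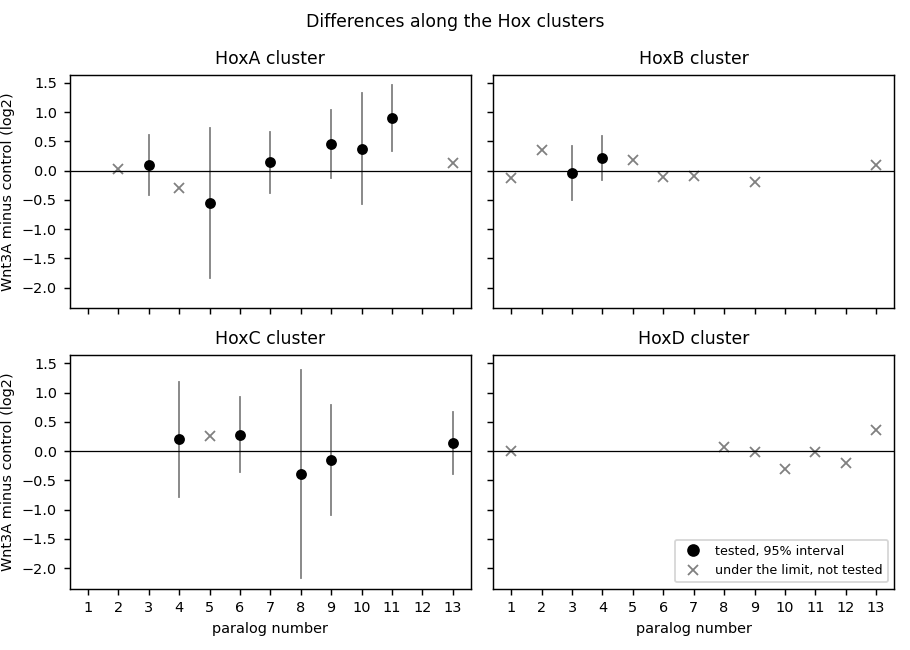
Difference of Wnt3A minus control on a log2 scale (vertical) against paralog number (horizontal), 1 panel per Hox cluster. Filled points are tested genes with their 95% confidence intervals, and crosses are genes under the limit, which were not tested. In HoxA the differences of paralogs 9, 10 and 11 are 0.46, 0.38 and 0.90, and the interval of Hoxa11 alone lies above 0.

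The Hox genes together had 31 members, of which 13 were tested. Of these, 9 read higher with Wnt3A and 4 lower (11 and 2 after scaling to hybridization controls), for a median difference of 0.14. In 5 of them both Wnt3A arrays lay above both controls and in 0 below both, where 14.7% and 19.8% of all tested genes did so.

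Among the partner proteins of Hox, Meis1 and Meis2 read in opposite directions. Meis1, a cofactor that also acts with Hoxa9 in leukaemia, read 5.45 and 5.60 with Wnt3A, against 5.12 and 5.18 in control. Both Wnt3A arrays lay above both controls, and the means differed by 0.37 (SE 0.21, 95% confidence interval -0.18 to 0.93). Its relative Meis2 read 7.23 and 7.44 with Wnt3A, against 7.81 and 7.62 in control. Here both Wnt3A arrays lay below both controls. The difference was -0.38 (SE 0.20, 95% confidence interval -0.91 to 0.16), which was -0.06 after scaling to hybridization controls. Both had an adjusted p of 0.917 in limma.

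Pbx2 read 5.97 and 5.56 with Wnt3A, against 5.89 and 5.78 in control, and Pbx3 read 4.90 and 4.53 with Wnt3A, against 4.79 and 4.69 in control. In both genes the Wnt3A arrays enclosed the control arrays. The differences were -0.07 (95% confidence interval -0.71 to 0.58) for Pbx2 and -0.02 (95% confidence interval -0.64 to 0.59) for Pbx3, and both were above 0 after scaling to hybridization controls. The 2 other probe sets of Pbx2 differed by -0.01 and -0.10. Meis3 differed by 0.04, and Pbx4 was under the limit.

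Msx1, a repressor that BMP signals induce and that keeps muscle precursors undifferentiated, read 4.32 and 5.06 with Wnt3A, against 4.37 and 4.31 in control. Only Wnt3A replicate 2 stood apart from the controls. The difference was 0.35 (SE 0.31), and -0.02 without that array. Its probe set carries a suffix for sets that can match several transcripts, and its other probe set differed by 0.19. Msx2 was under the limit, with a mean of 1.93.

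Of the Dlx genes, relatives of the fly gene distal-less, 4 of 6 were tested. Dlx1, which acts in forebrain interneurons and the jaw, read 3.07 and 3.15 with Wnt3A, against 3.55 and 3.56 in control. Both groups were tight and did not overlap. The difference was -0.45 (SE 0.17, 95% confidence interval -0.89 to -0.00081, limma adjusted p = 0.878). After scaling to hybridization controls it was -0.13. With the replicate block the unadjusted p of Dlx1 in limma was 0.072. Dlx2, its neighbour in the genome, read 4.81 and 4.48 with Wnt3A, against 4.75 and 4.48 in control. The groups overlapped, with a difference of 0.03 (SE 0.24). Dlx3, a gene of skin, hair and bone, read 5.41 and 5.15 with Wnt3A, against 5.16 and 5.09 in control, also with overlap, and differed by 0.15 (SE 0.22), which was 0.021 without Wnt3A replicate 1. Dlx4 differed by -0.32 without overlap, by -0.14 without control replicate 1, and by less than 0.01 after scaling to hybridization controls. Dlx5 and Dlx6, which act in bone and the lower jaw, were under the limit in both groups.

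The Prrx genes mark the mesenchyme of the limb bud. Prrx2 read 8.56 and 8.59 with Wnt3A, against 7.85 and 8.31 in control. The Wnt3A arrays nearly coincided and lay above both controls. They were 0.50 higher in the mean (SE 0.23), with a 95% confidence interval of -0.11 to 1.10 and a limma adjusted p of 0.917. Leaving out control replicate 1 gave 0.27, and leaving out control replicate 2 gave 0.73. Prrx1 read 9.80 and 8.75 with Wnt3A, against 9.41 and 8.87 in control. In both groups replicate 2 read lower than replicate 1, and the groups overlapped. The difference of 0.13 (SE 0.42) was -0.40 without Wnt3A replicate 1, and the 3 other probe sets of Prrx1 differed by 0.17, 0.21 and 0.61.

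The Pitx genes were close to the limit or little apart. Pitx3, a gene of the lens and of skeletal muscle, read 3.21 and 3.53 with Wnt3A, against 3.39 and 3.33 in control. Pitx1, which sets hindlimb identity, read 2.10 and 2.44 with Wnt3A, against 2.25 and 2.25 in control. In both genes the Wnt3A arrays enclosed the controls, and the differences were 0.01 (SE 0.20) and 0.02 (SE 0.17).

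Of 11 T-box members 8 were tested, 4 higher and 4 lower with Wnt3A (6 and 2 after scaling to hybridization controls). Tbx2, a repressor of cell cycle inhibitor genes, read 4.20 and 3.13 with Wnt3A, against 2.87 and 2.97 in control. Both Wnt3A arrays lay above both controls, but mainly replicate 1 stood apart. The difference was 0.74 (SE 0.39, 95% confidence interval -0.27 to 1.76; limma adjusted p = 0.917), and 0.21 without Wnt3A replicate 1.

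Tbx3, a close relative of Tbx2, read 7.62 and 6.43 with Wnt3A, against 7.89 and 7.21 in control. The groups overlapped, and in both of them replicate 2 read lower. The difference of -0.52 (SE 0.48) was 0.08 without Wnt3A replicate 2, and another probe set of Tbx3 just above the limit differed by 0.21. Tbx15, which acts in the skeleton and in fast glycolytic muscle, read 5.52 and 4.87 with Wnt3A, against 5.59 and 5.95 in control. Both Wnt3A arrays lay below both controls. Their mean differed by -0.58 (SE 0.32), with a 95% confidence interval of -1.41 to 0.25 and a limma adjusted p of 0.917, and by -0.26 without Wnt3A replicate 2. Tbx1, a regulator of muscle and heart from the pharyngeal arches, read 6.13 and 5.62 with Wnt3A, against 6.04 and 6.15 in control. The groups overlapped, and the difference of -0.22 (SE 0.26) was 0.10 after scaling to hybridization controls.

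Tbx18, which acts in somites and the heart, differed by 0.44 (SE 0.31) with overlapping groups. With control replicate 2 left out it differed by 0.13, and with control replicate 1 left out by 0.75. Tbx20, a heart gene, differed by 0.23 without overlap. Tbx5, which starts the forelimb, was near the limit, at 2.48 and 2.36 with Wnt3A, against 2.65 and 2.79 in control. Its groups did not overlap, and its difference of -0.30 was 0.02 after scaling to hybridization controls. Tbx4, its counterpart in the hindlimb, Tbx6, a gene of early paraxial mesoderm, and Tbx21, which directs a class of T helper cells, were under the limit.

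**Figure D3:**
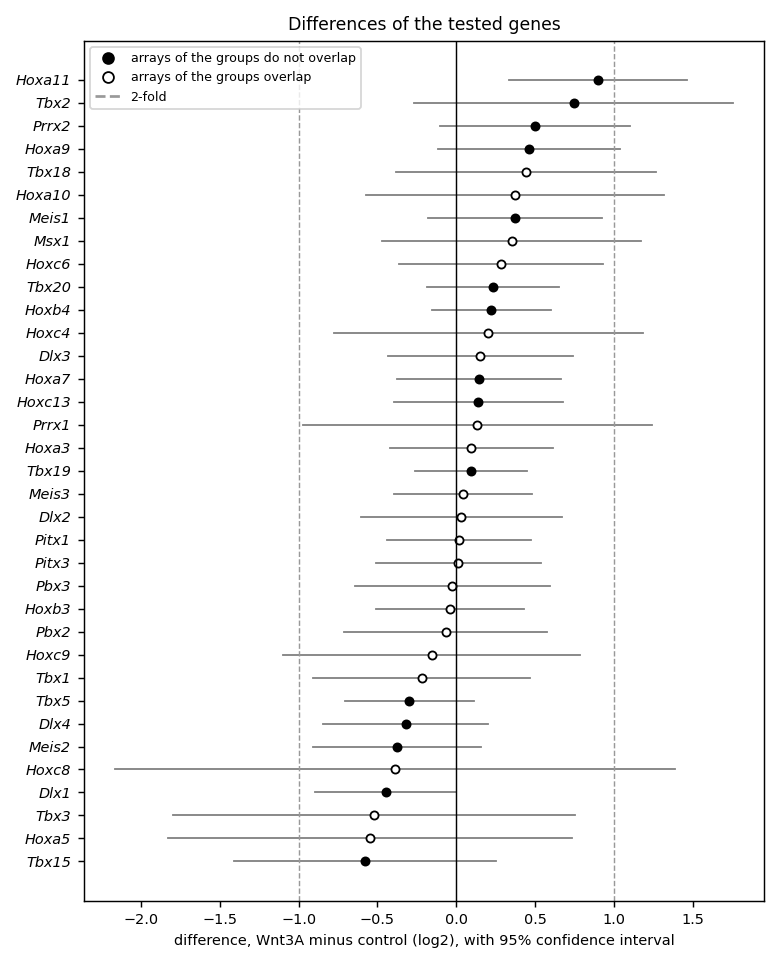
Difference of Wnt3A minus control on a log2 scale (horizontal) with its 95% confidence interval for the 35 tested members, ordered by size. Filled points mark genes whose Wnt3A and control arrays do not overlap, and dashed lines mark 2-fold. Differences run from -0.58 for Tbx15 to 0.90 for Hoxa11, and the intervals of Hoxa11 and Dlx1 leave out 0.

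Over the whole set 22 tested members read higher with Wnt3A and 13 lower, with a median difference of 0.09, beside -0.02 over all tested genes. For 15 members the groups did not overlap, which is 42.9%, against 34.4% of all tested genes. Of these, 10 lay above the controls (28.6%; 14.7% of all tested genes) and 5 below (14.3%; 19.8% of all tested genes). For 12 members (34.3%) the difference was wider than the gap within both groups, against 21.4% of all tested genes. The median absolute difference was 0.23 for members and 0.20 for all tested genes, and 5 members (14.3%) differed by at least 0.5, against 16.2% of all tested genes. These shares describe the set; its members were chosen with earlier results known, and no test was made of them. With 2 arrays against 2, an exact two-sided permutation test of a single gene cannot go below 0.333.

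The members also differed between the arrays of a group, by less in the median than all tested genes. The median gap between arrays was 0.27 within Wnt3A and 0.14 within control for the members, against 0.30 and 0.23 for all tested genes. Wnt3A replicate 2 read lower than replicate 1 in 23 of the 35 members (65.7%), against 47.1% of all tested genes. Control replicate 2 read lower than replicate 1 in 21 of them (60%), against 41.4% of all tested genes. The gap within Wnt3A was over 1 log2 unit for Hoxc8 (1.97), Hoxa5 (1.36), Tbx3 (1.19), Tbx2 (1.06) and Prrx1 (1.06), and within control the widest was that of Hoxc4 (0.92).

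**Figure D4:**
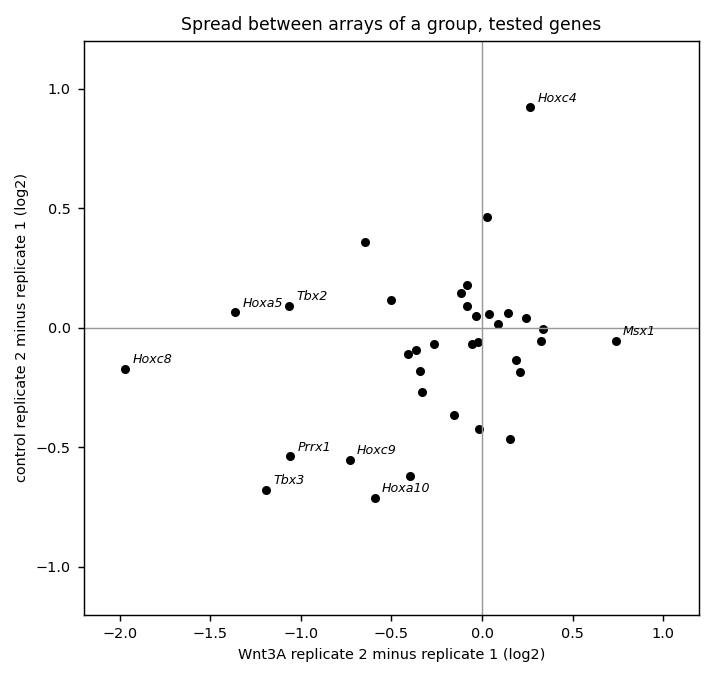
Replicate 2 minus replicate 1 on a log2 scale within Wnt3A (horizontal) and within control (vertical), 1 point per tested member. Hoxc8, Hoxa5, Tbx3, Tbx2 and Prrx1 lie left of -1, so that Wnt3A replicate 2 read far lower than replicate 1, and for Hoxc8, Tbx3 and Prrx1 control replicate 2 was lower as well.

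Other genes of the same circuits were taken from lists, and in none of the lists did a gene pass an adjusted p of 0.05 in limma. Of 11 tested homeobox genes of limb and axis outside the set, 6 read higher and 5 lower (9 and 2 after scaling to hybridization controls), with a median of 0.03. The Iroquois genes Irx3 and Irx5 had wider differences than any member, at 1.13 (SE 0.30) and 1.09 (SE 0.22), with adjusted p of 0.658 and 0.532 in limma. Irx5 read 7.28 and 7.07 with Wnt3A, against 5.94 and 6.21 in control. The Cdx genes, known activators of Hox clusters, were all under the limit. Lhx9, a gene of the limb bud and gonad, differed by 1.26 from a control mean of 1.78, under the limit, and Evx2, which adjoins the HoxD cluster, by -0.34.

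Of 9 tested partners of Hox proteins and other homeobox cofactors, 3 read higher and 6 lower, with a median of -0.15, where after scaling to hybridization controls 7 read higher and 2 lower. Pknox2, a relative of Meis, differed by -0.39, Tgif2 by -0.37, Tgif1 by -0.20 and Meox1 by -0.15, all 4 without overlap. They were named for having the lowest unadjusted p of the 9 in limma, and 34.4% of all tested genes had no overlap. The Wnt3A mean of Pknox2, 2.04, was under the limit. Of 7 tested partners and relatives of T-box proteins, 2 read higher and 5 lower, with a median of -0.10, where after that scaling 6 read higher and 1 lower. Mga differed by -0.40, Sall4 by -0.15, Hand1 by -0.11 and Hand2 by -0.10. The Wnt3A mean of Hand1, 2.16, was under the limit.

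Of 17 tested Polycomb and trithorax genes 7 read higher and 10 lower, with a median of -0.05, and after scaling to hybridization controls 16 read higher and 1 lower. Phc1 differed by -0.49, Eed by 0.41, Kdm6a by -0.25 and Jarid2 by -0.15. Of 12 tested genes of the retinoic acid pathway 5 read higher and 7 lower (8 and 4 after that scaling), with a median of -0.05. Within it Rdh10, which makes retinaldehyde from retinol, read 7.16 and 7.09 with Wnt3A, against 8.55 and 8.54 in control. Dhrs3, which turns retinaldehyde back into retinol, read 7.28 and 6.39 with Wnt3A, against 8.59 and 8.85 in control. Both genes had all Wnt3A arrays below the controls, with differences of -1.42 (SE 0.18, adjusted p = 0.325 in limma) and -1.89 (SE 0.35; limma adjusted p = 0.488). Stra6 differed by 0.45 and Rxrb by -0.40. Of 11 tested BMP and hedgehog inputs 6 read higher and 5 lower, with a median of 0.05. Id1 differed by -1.03, Bmp4, an inducer of Msx genes, by 0.70, Grem1 by -0.69 and Id3 by -1.12. Id3 read 10.08 and 8.40 with Wnt3A, against 10.42 and 10.30 in control (SE 0.57), so mainly Wnt3A replicate 2 stood apart. Bmp4 had a control mean of 2.20, near the limit, and control replicate 1, at 2.03, was under it.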

How the data were processed

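RNA of 2 Wnt3A and 2 control samples was isolated with Trizol and hybridized to Affymetrix arrays, per the labels' protocols. The authors deposited a single log2 signal for each probe set on each array, where the log2 scale is read from the range of the values; another base would rescale every difference. The submitters' processing notes name GCOS and PLIER. Versions, normalization and build: not given in the sources used here. Array medians were 4.22 and 4.15 for Wnt3A and 4.19 and 4.20 for control; centring is unknown, and nothing was normalized again. Groups follow the titles, since the treatment text names Wnt3A for all samples.

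Of 22690 probe sets 64 are array controls, 20393 had 1 platform symbol (20364 updated by Entrez ID to GRCm38.p6), 691 had several and were not named, and 1555 are unlisted. The dimmest 25% of genes were left out. Of the members 16 had several probe sets, 9 of them several above the limit, which differed in sign for 1, Tbx3.

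The test was limma 3.58.1 in R 4.3.3 (two-sided; lmFit, then eBayes with a trend on intensity), with group as the only term and Benjamini-Hochberg adjustment over 9295 genes. It was tested on simulated data, where calls were required only at differences far wider than that of any member. Its power at the differences of the members was not tested. Standard errors and intervals are moderated, with 4.68 degrees of freedom; 2 arrays a group limit the precision. Alternatives were the replicate block, quantile normalization, median centring, scaling to hybridization controls, no filter, the dimmer 50% left out, the mean of probe sets, no trend and leaving out each array.

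The members and lists were chosen with earlier results of these data known. Array values are given for members that passed, for those at least 0.5 apart without overlap, and for the 2 of highest mean in each family; Hoxc9, Dlx1, Tbx5 and the other members named with values were chosen after these were seen. Up to 4 genes per list were named by lowest p, and 139 of 153 list entries were on the array.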

Additional observations from a re-analysis of the deposited data

How the results depend on the processing

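No member passed the adjusted p of 0.05 in limma under any of the alternatives run, and the lowest adjusted p of a member was between 0.185, with the replicate block, and 0.9996, without control replicate 2 (0.648 with all arrays and the group alone). The arrays share replicate numbers, but the labels do not say that a number marks a shared culture or day; same-numbered deviations correlated at 0.478 over all tested genes and at 0.298 over the members. With the replicate block 83 genes of the whole table passed, beside 0 without it, none of them a member. The number of members at an unadjusted p under 0.05, 2 with all arrays, was 1 with the replicate block, with median centring, with no intensity trend and with the dimmer 50% left out, 4 after scaling to hybridization controls, and between 0 and 6 with single arrays left out. Scaling to hybridization controls gave the members a median difference of 0.41, beside 0.09, and all tested genes one of 0.30. It put 2 members, Hoxa11 and Tbx2, at least 2-fold apart without overlap, beside 0, called 49 genes of the whole table, and gave 6 members the other sign. These were Hoxb3 (0.28), Hoxc9 (0.16), Pbx2 (0.25), Pbx3 (0.29), Tbx1 (0.10) and Tbx5 (0.02); relative to the median of all genes their sign was as before. With single arrays left out the members' median ran from 0.01 to 0.16 and the count of members 2-fold apart from 0 to 4, the 4 without Wnt3A replicate 1 being Hoxa11, Hoxa5, Hoxc8 and Tbx3. Such counts set 1 array against 2 and are met more easily. Of the 35 tested members 16 turned sign when 1 array was left out. Their differences ran from -0.13 to 0.20 for Dlx2, -1.23 to 0.13 for Hoxa5, -0.13 to 0.052 for Hoxb3, -0.12 to 0.31 for Hoxa3, -0.26 to 0.66 for Hoxc4, -0.52 to 0.21 for Hoxc9, -0.0016 to 0.087 for Meis3, -1.37 to 0.60 for Hoxc8, -0.018 to 0.72 for Msx1, -0.27 to 0.14 for Pbx2, -0.21 to 0.16 for Pbx3, -0.15 to 0.18 for Pitx1, -0.15 to 0.17 for Pitx3, -0.40 to 0.66 for Prrx1, -0.47 to 0.032 for Tbx1 and -1.12 to 0.075 for Tbx3. With no filter on dim genes all 60 members were tested, with a median of 0.02 and 3 at an unadjusted p under 0.05 in limma. The causes were not tested.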

Other observations

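Some probe sets of Hox genes carry 2 symbols and were left out of the comparison. One named for Hoxd4 and Hoxd3 read 3.29 and 3.35 with Wnt3A, against 3.12 and 2.98 in control, so that the 2 Wnt3A arrays lay above both controls and all 4 arrays above the limit of 2.18, while every HoxD gene with a probe set of its own had a mean under it. Another probe set with the same 2 symbols read 1.84 and 1.84 with Wnt3A, against 1.84 and 1.97 in control. The probe set shared by Hoxb8 and Hoxb7 averaged 1.33, under the limit.

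The probe sets of Prrx1 followed each other across arrays. All 4 read lower on Wnt3A replicate 2 than on replicate 1, by 1.06 to 1.71, and lower on control replicate 2 than on replicate 1, by 0.54 to 1.41. The other Prrx gene, Prrx2, had a gap of 0.03 within Wnt3A and of 0.46 within control, where replicate 2 was the higher. Whether a difference between cultures or between hybridizations goes with this was not tested.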
